A study of Rattus norvegicus with 48 samples.

Results

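Limb immobilization removes load and contraction from a muscle, and the fast, glycolytic fibres of a mixed limb muscle carry a set of genes that are expressed at lower levels in the slow, oxidative soleus. These genes encode the fast isoforms of the contractile and calcium-handling proteins, the enzymes that turn glycogen and glucose into lactate, and channels and secreted factors of fast fibres. Here the genes enriched in plantaris over soleus were followed through 3 d of hindlimb immobilization (HI) in rats of 2 breeding lines. A gene was a member when its mean level over the 12 CTRL plantaris libraries was at least 5 CPM (the count divided by the library total and scaled to 1000000) and its log2 ratio to the mean over the 12 CTRL soleus libraries, with 1 CPM added to each, was at least 2. The rule was met by 89 of the 31998 genes in the table. The members were thus chosen by their measured CTRL levels in both muscles, and those levels also enter each comparison of HI with CTRL.

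The rats were females of generation 19, 14 months old, of lines bred for a low (LRT) or a high (HRT) response to endurance training. All had been trained on a treadmill when young, and all received puromycin shortly before tissue collection. HI rats had 1 hindlimb cast in plantar-flexion, and CTRL rats were separate animals without a cast. There were 6 libraries in each of the 8 combinations of muscle, line and treatment, with totals of 26.8 M to 36.4 M estimated counts and RNA integrity numbers (RIN) of 7.8 to 8.6. Each library holds the RNA of a piece of muscle with all its cell types, so that fewer fast fibres and less of a transcript in each fibre cannot be told apart.

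The label of the members rests on the CTRL libraries that chose them, so the contrast between muscles in CTRL rats is given only as a description. Mean levels in CTRL plantaris ran from 5.18 to 80300 CPM with a median of 96.8 CPM, and 20 members were above 1000 CPM. The log2 ratio was between 2 and 3 for 56 members, between 3 and 4 for 24, and 4 or more for 9. Pvalb, the calcium buffer parvalbumin of fast fibres, had a mean of 1660 CPM in CTRL plantaris and 1.22 CPM in CTRL soleus. Among genes with a symbol, Espl1, the protease separase, at a log2 ratio of 2.01 and Pgk1, phosphoglycerate kinase, at 2.04 were just inside the rule. Just outside, again among genes with a symbol, were Myod1, a myogenic transcription factor, at 1.98 and Ankrd9 at 1.97. Among 6 genes fixed as slow muscle markers, none of which is a member, the summed level was 2410 to 4820 CPM in CTRL plantaris and 13500 to 25000 CPM in CTRL soleus. These sums are in CPM on library sizes scaled by trimmed means (TMM).

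Only 48 members could be given a symbol. The symbols come from the paper's tables of changed genes, which pair 1149 identifiers (3.59%) with a symbol, so a named member is one that the authors called in at least 1 comparison. The other 41 members are counted throughout and appear by identifier where one is singled out. The most abundant member, ENSRNOG00000049695, has no symbol and took 8.37% ± 0.841 (SD, n = 6) of the counts in LRT CTRL plantaris.

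The members together made up a large share of plantaris RNA, and that share was lower in HI than in CTRL libraries of LRT rats. In LRT CTRL plantaris their summed counts were 17.7% to 21.9% of the library with a median of 19.5%, and in LRT HI plantaris they were 9.44% to 16.7% with a median of 15.9%. The ranges did not overlap, and the means were 19.8% ± 1.69 and 14.1% ± 3.3 (SD, n = 6 each). In HRT plantaris the share was 14.7% to 18.7% (median 17.8%) in CTRL and 11.9% to 17.2% (median 16.8%) in HI, with overlapping ranges. Without the 5 most abundant members the share was 6.82% ± 0.487 in CTRL and 4.26% ± 1.21 in HI plantaris of LRT, and 5.8% ± 0.197 and 4.86% ± 0.735 in HRT (n = 6 each, no test).

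Single libraries stood apart in these sums. LRT HI replicates 1 and 3 lay at 9.44% and 10.3% in plantaris while the other 4 HI libraries of that group lay at 15.6% to 16.7%. HRT HI plantaris replicate 4, at 11.9%, lay apart from the other 5 of its group, of which the highest was at 17.2%. The members took 2.5% ± 0.723 of the counts in LRT CTRL soleus and 1.96% ± 0.72 in LRT HI (0.785 times CTRL), and 1.24% ± 0.596 and 1.44% ± 0.269 in HRT (1.16 times CTRL), with overlapping ranges and no test. Its spread was uneven: HRT CTRL replicates 1, 2 and 6 lay at 1.74% to 1.82% and replicates 3, 4 and 5 at 0.664% to 0.72%. The main counts of members called in LRT are therefore also given without HI replicates 1 and 3, a choice made after the values were seen, and that of falls in HRT plantaris without HI replicate 4.

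**Figure D1:**
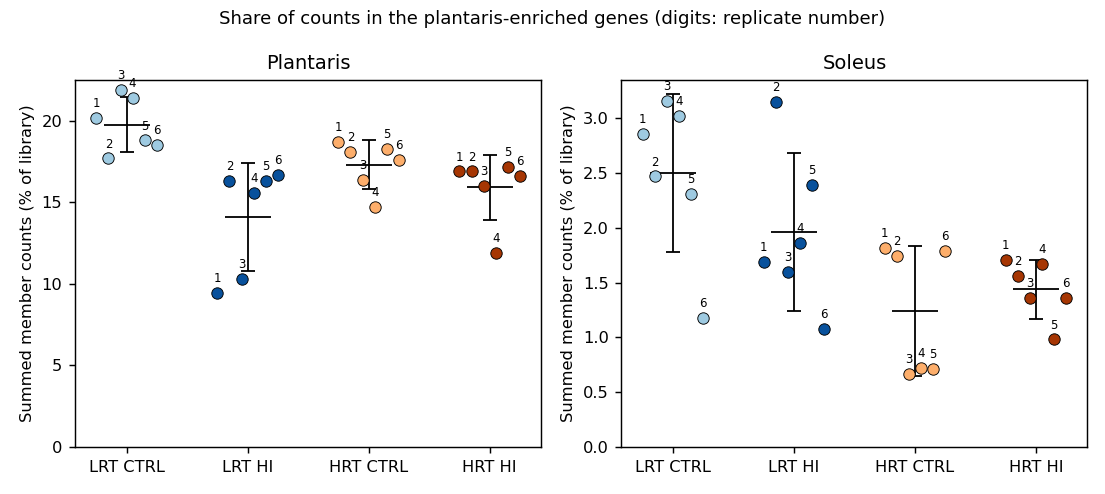
Summed counts of the 89 plantaris-enriched genes as a percentage of each library's total (vertical axis, from 0) in the 4 groups of plantaris (left) and soleus (right). Points are single libraries with their replicate number, and the bar and whiskers are the mean and SD of 6. In LRT plantaris all 6 HI libraries sit below the 6 CTRL libraries, with replicates 1 and 3 lowest at 9.44% and 10.3%.

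The first question was how the fast-muscle genes changed with HI in the plantaris of each line. In LRT plantaris 49 of the 89 members fell and 1 rose (edgeR quasi-likelihood test, Benjamini-Hochberg adjusted p under 0.05 over 16960 tested genes), while 13.6% of all tested genes fell and 15.1% rose. The median log2 fold change of the members was -0.76, against 0.013 for all tested genes, and 75 of 89 members lay below 0. With an absolute log2 fold change over 1 as well, 32 members fell, a call made for 2.44% of all tested genes, and in HRT plantaris 7 fell, beside 0.991%. HI and CTRL libraries did not overlap, with HI lower, for 33 members (37.1%) and for 5.74% of all tested genes. Among the 49 members that fell, replicates 1 and 3 were the 2 lowest HI libraries for 45, and without these rats 27 members fell, beside 5.81% of all tested genes, at a median of -0.51.

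In HRT plantaris 13 members fell and 1 rose, beside 5.85% and 5.11% of all tested genes. The median log2 fold change was -0.33 against 0.018 for all tested genes, and 65 of 89 members lay below 0. HI libraries lay below all CTRL libraries for 21 members (23.6%) and for 5.4% of all tested genes. All 13 members that fell in HRT were among the 49 that fell in LRT. Without HI replicate 4 the count in HRT was 5, beside 3.04% of all tested genes.

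Because CTRL libraries enter both the rule and the HI comparison, the counts were repeated with members chosen in the CTRL libraries of the other line alone. In LRT plantaris 52 of 96 such members fell (26 without HI replicates 1 and 3), and in HRT plantaris 13 of 85. Scaling by library totals in place of trimmed means (TMM) moved the median of all tested genes by 0.24 in LRT and 0.16 in HRT plantaris. On that scale 41 and 12 members fell, beside 6.33% and 2.96% of all tested genes, and their medians, -0.55 and -0.18, lay below all-gene medians of 0.254 and 0.174.

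**Figure D2:**
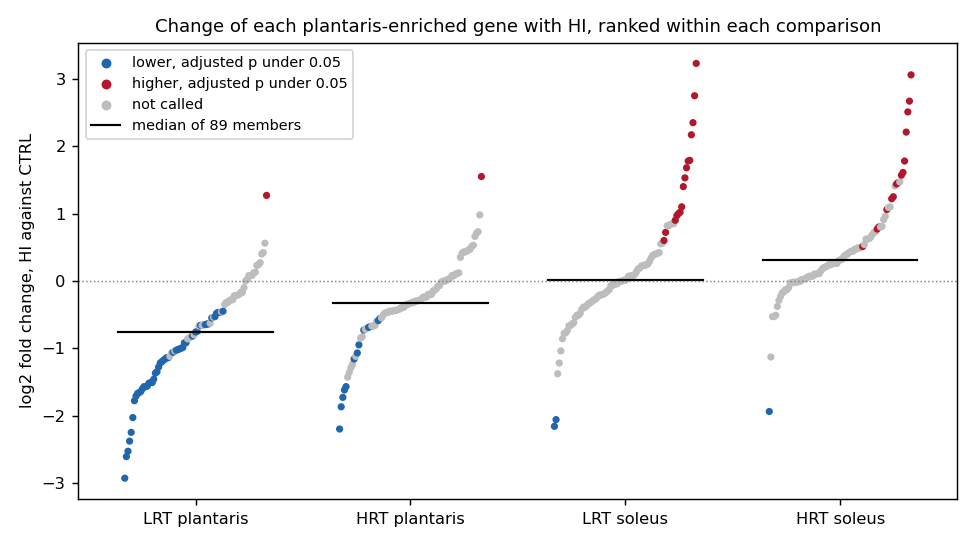
The log2 fold change of HI against CTRL (vertical axis) for each of the 89 members, ranked from lowest to highest within each of the 4 comparisons. Blue and red points passed an adjusted p of 0.05, grey points did not, and the bar is the median: -0.76 and -0.33 in LRT and HRT plantaris, 0.01 and 0.31 in LRT and HRT soleus.

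Most members of the glycolysis and glycogen list fell in LRT plantaris. Of the 12 members in this list, 10 fell in LRT and 6 in HRT and none rose, with median log2 fold changes of -1.39 and -0.69. The list can hold only genes that the authors called somewhere, so its share is not comparable with the share over all genes. Without HI replicates 1 and 3, only 8 of the 12 fell in LRT (Pfkfb1 and Slc16a3 no longer passed), and without HI replicate 4 only Pgam2 fell in HRT. Another 13 genes of the list with a symbol are not members, and 10 of them fell and 2 rose in LRT plantaris. In HRT plantaris 2 of these 13 fell and 1 rose.

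Pgam2, the muscle isoform of phosphoglycerate mutase, had a lowest, median and highest level of 2230, 2500 and 2810 CPM in LRT CTRL plantaris (CPM on TMM-scaled library sizes, here and below) and of 185, 787 and 1430 CPM in HI. The groups did not overlap, and replicates 1 and 3 were the lowest at 185 and 246 CPM. It fell 3.18-fold in LRT (log2 fold change -1.67 ± 0.3 SE, adjusted p = 6.8e-05, edgeR) and 2.1-fold in HRT (-1.07 ± 0.29, adjusted p = 0.015, edgeR).

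Ldha, the muscle form of lactate dehydrogenase, was at 3410, 3740 and 4430 CPM in LRT CTRL plantaris and at 319, 1190 and 2370 CPM in HI. In HRT the values were 2660, 2970 and 3310 CPM in CTRL and 617, 1620 and 2040 CPM in HI. Every HI library of either line was below every CTRL library of that line, and Ldha changed by -1.6 ± 0.32 on the log2 scale in LRT, with an adjusted p of 0.00027, and by -0.95 ± 0.32 in HRT, with 0.043 (edgeR). The HRT call for Ldha was lost without HI replicate 4, where the value was -0.8.

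Fbp2, muscle fructose-bisphosphatase, showed the largest fall of the list. Its levels were 103, 114 and 136 CPM in LRT CTRL plantaris and 2.4, 17.3 and 75.4 CPM in HI, with no overlap. In LRT the fall was 4.08-fold with an adjusted p of 0.0032, in HRT 2.97-fold with 0.041 (edgeR), and the HRT call did not hold without HI replicate 4, where the log2 fold change was -1.39 in place of -1.57.

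Eno3, the muscle enolase, Pkm, pyruvate kinase, and Pgk1 also fell in both lines, by 1.28, 1.14 and 0.99 on the log2 scale in LRT and by 0.68, 0.73 and 0.56 in HRT. Their HI libraries lay below their CTRL libraries in both lines, and these HRT calls were lost without HI replicate 4, where Eno3, Pkm and Pgk1 were at -0.58, -0.65 and -0.5. LOC100362738, annotated as a pyruvate kinase-like locus, fell with Pkm by 1.18 in LRT and 0.69 in HRT, where its call was also lost without HI replicate 4 at -0.6, but transcripts of near-identical copies can share reads, so the split between these 2 loci is uncertain. Pfkm, the muscle phosphofructokinase that commits glucose to glycolysis, Gpd1, which feeds the glycerol phosphate shuttle, Pfkfb1, which sets fructose bisphosphate levels, and Slc16a3, which exports lactate, fell in LRT by 0.92, 1.57, 1.51 and 1.66 on the log2 scale. Without LRT HI replicates 1 and 3 these 4 genes were at -0.55, -1.03, -0.99 and -1.11 in LRT, where Pfkm and Gpd1 still passed. In HRT the 4 genes were at -0.42, -0.7, -0.67 and -1.12, none past the test. The same list held 2 members that did not fall: Pfkfb3, a relative of Pfkfb1, was at 0.12 and 0.46, and Prkag3, the AMPK gamma subunit of glycolytic fibres, at 0.08 and 0.98, with adjusted p of 0.79, 0.33, 0.91 and 0.11 (edgeR).

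**Figure D3:**
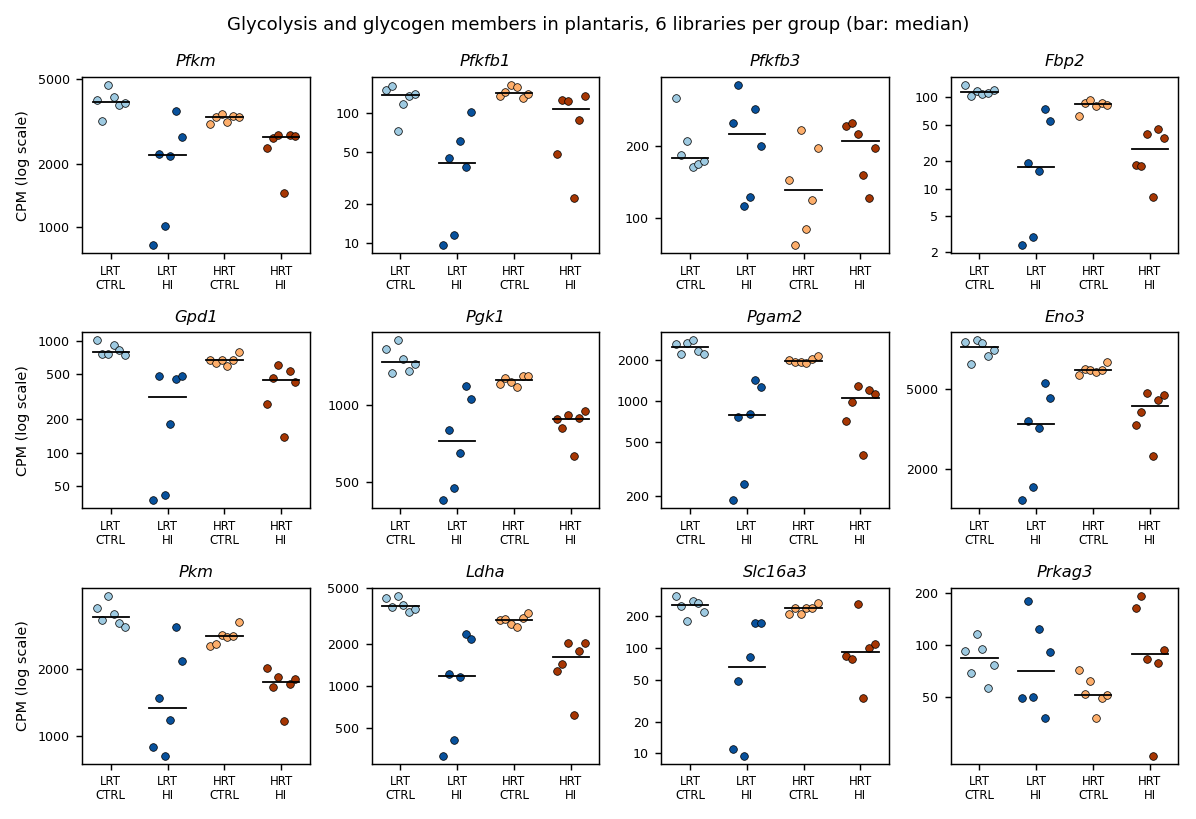
Levels of the 12 glycolysis and glycogen members in plantaris, in CPM on a logarithmic axis whose range differs between panels. Points are the 6 libraries of a group in replicate order and the bar is the median. For Pgam2, Eno3, Pgk1, Ldha, Pkm and Fbp2 all HI points lie below the CTRL points of their line, and Pfkfb3 and Prkag3 do not show this.

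Only 9 of the 20 genes of the fast sarcomere list had a symbol, and the authors had called each of these, so the list does not stand for all fast sarcomere genes. The 3 members among the 9 fell in LRT plantaris and none passed in HRT. Of all 89 members, 22 passed in no comparison of HI with CTRL, 20 of them without a symbol. The most abundant member, ENSRNOG00000049695, was among these 20. Of the 6 other genes of that list with a symbol, 4 fell in LRT plantaris and 2 fell in LRT soleus, and none passed in either muscle of HRT. Mylpf, the fast regulatory light chain, was at 8120, 10500 and 10700 CPM in LRT CTRL and 2410, 4640 and 6110 CPM in HI. Myoz1, a Z-disc protein of fast fibres, was at 2840, 3060 and 4100 CPM in CTRL and 634, 1640 and 2870 CPM in HI, where only the highest HI library reached the CTRL range. Their log2 fold changes were -1.22 ± 0.39 (adjusted p = 0.017) and -1.01 ± 0.26 (adjusted p = 0.0034, both edgeR) in LRT, and -0.6 and -0.43 in HRT with adjusted p of 0.34 and 0.3. Mylpf was at 6770 to 8070 CPM in HRT CTRL plantaris and 3000 to 6420 CPM in HI, with no overlap although it did not pass. Ky, a protease-like protein needed for muscle maintenance, was at -1.56 ± 0.47 in LRT (adjusted p = 0.011) and -0.29 ± 0.46 in HRT. Without LRT HI replicates 1 and 3 none of these 3 passed, at -0.95, -0.64 and -1.07.

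None of the 3 calcium and excitation members passed in plantaris of either line. Of the 16 other genes of that list with a symbol, which are not members, 10 fell and 3 rose in LRT plantaris and 2 fell and 1 rose in HRT plantaris. In soleus 4 of these 16 fell and 1 rose in each line. As with every list here, the genes are limited to those the authors called. Atp2a1, the calcium pump of the fast sarcoplasmic reticulum, was at 2070, 2630 and 2980 CPM in LRT CTRL and 1260, 2190 and 2950 CPM in HI, and the ranges overlapped. Its log2 fold changes were -0.32 ± 0.3 in LRT and 0.12 ± 0.3 in HRT, with adjusted p of 0.46 and 0.85 (edgeR). Pvalb HI libraries lay below CTRL libraries in LRT, at 1070 to 1530 against 1980 to 3120 CPM, yet the gene did not pass (-1.04 ± 0.49, adjusted p = 0.11), and Kcnc4, a voltage-gated potassium channel, was at 0.23 and 0.73. Ak1, the adenylate kinase that balances adenine nucleotides in contracting fibres, fell in LRT by 1.06 on the log2 scale (adjusted p = 0.0022) and was at -0.3 in HRT. The LRT call for Ak1 was lost without HI replicates 1 and 3, where the value was -0.74.

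The largest falls in plantaris were outside metabolism. Ostn, which encodes the secreted peptide osteocrin or musclin, was at 25.5, 77.9 and 253 CPM in LRT CTRL and 1.28, 10.2 and 41.6 CPM in HI, a 7.63-fold fall with overlapping ranges (log2 fold change -2.93 ± 0.52, adjusted p = 6e-05). In HRT it fell 3.66-fold, from 8.45, 33.3 and 48.9 CPM to 2.76, 8.21 and 16.8 CPM (adjusted p = 0.012). Hs3st1, a heparan sulfate sulfotransferase, was at 15.3 to 34.3 CPM in LRT CTRL and 2.15 to 9.2 CPM in HI, and at 24.1 to 32 CPM and 2.59 to 9.62 CPM in HRT. It fell 5.79-fold in LRT (adjusted p = 2.3e-07) and 4.58-fold in HRT (adjusted p = 9.4e-06, edgeR), with no overlap in either line, and both calls held without the libraries named above. Lgi2, a secreted leucine-rich repeat protein, fell 6.1-fold in LRT (adjusted p = 0.00014) and was at -1.24 ± 0.46 in HRT (adjusted p = 0.074), with HI below CTRL in all libraries of both lines.

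Gabrr1, a rho subunit of the GABA receptor and a low-abundance member, fell in both plantaris and rose in both soleus. In plantaris it was at 3, 4.69 and 8.17 CPM in LRT CTRL and 0.49, 1.42 and 2.8 CPM in HI, and at 4.15, 5.55 and 10.2 CPM and 1.15, 2.09 and 2.8 CPM in HRT. The falls were 3.44-fold and 3.07-fold, with no overlap (adjusted p = 0.00045 and 0.005). In soleus its medians were 0.322 and 0.963 CPM in LRT CTRL and HI and 0.298 and 0.991 CPM in HRT, with 1 CTRL library of each line at 3 counts or fewer. Those rises, 3.44-fold and 2.71-fold, had adjusted p of 0.008 and 0.028 with overlapping ranges.

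Each line had 1 member that rose in plantaris, Chac1 in LRT and Arrdc2 in HRT. Chac1, an enzyme that degrades glutathione, was at 13.5, 24.7 and 42.1 CPM in LRT CTRL and 20.9, 54.6 and 118 CPM in HI, a 2.41-fold rise with overlapping ranges (adjusted p = 0.0047), and at a log2 fold change of 0.35 ± 0.34 in HRT. Arrdc2, an arrestin-domain protein, was at 23.4, 28.8 and 31.7 CPM in HRT CTRL and 26.1, 87.4 and 134 CPM in HI, a 2.92-fold rise (adjusted p = 0.002), and at 0.4 ± 0.31 in LRT. The difference between lines was not past the test for either gene (adjusted p = 0.81 and 0.76, edgeR).

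Members with and without a symbol were also counted apart. In LRT plantaris 35 of 48 members with a symbol and 14 of 41 without one fell, at medians of -1.17 and -0.48, and in HRT 11 and 2 fell, at -0.47 and -0.24, beside 13.6% and 5.85% of all tested genes. A symbol was at hand only for genes that the authors had called, so these 2 sets were not drawn alike. Of the unnamed members ENSRNOG00000053848 had the lowest value in LRT plantaris, at a log2 fold change of -2.38 (adjusted p = 3.9e-05), and fell in HRT by 1.73.

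The start of each gene was read for members that moved together. RefSeq sequences of 300 bases (250 before and 50 after the start, GRCr8 build, which is not the build of the counts) were matched by symbol for 37 of the 48 named members. They were searched on both strands for the E-box CAGCTG read by myogenic factors, the MEF3 motif TCAGGTT, the letters TATAAA bound near many starts, the core ACGTG read by hypoxia-inducible factors, the motif TGATGNAA read by ATF4, the glucocorticoid response element and the MEF2 motif, which can overlap TATAAA. The E-box was in 12 of the 37 members (32.4%) and in 15.1% of the 33469 promoters of the table. It was in 7 of 25 matched members that fell in LRT plantaris (28.0%) and in 4 of 12 that rose in soleus of a line (33.3%). The other motifs were in 10.8% (TCAGGTT), 8.11% (TATAAA), 21.6% (ACGTG), 5.41% (TGATGNAA) and 5.41% (MEF2) of the members, beside 4.03%, 14.2%, 19.3%, 3.98% and 3.29% of the table, and the glucocorticoid response element was in none of the 37 windows and in 0.439% of the table. A match is a run of letters and not a bound site. The 37 are all genes that the authors called, while the 33469 promoters were not limited to genes detected in muscle. No share was taken over other muscle genes, so no motif is shown to be particular to the members.

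The windows below were picked because each holds a match, so they do not represent all members: the first 5 are from genes that fell in LRT plantaris and the last 4 from genes that rose in soleus of both lines. Members with a window but no match, such as Hs3st1 and Lrrc30, are not shown. Mss51, which encodes a mitochondrial protein of skeletal muscle, was at 349 to 692 CPM in LRT CTRL plantaris and 25.8 to 361 CPM in HI (log2 fold change -1.46 ± 0.39, adjusted p = 0.0039), a call lost without HI replicates 1 and 3, where Mss51 was at -0.91. Each runs 5′ to 3′ on the strand of its gene with motif matches in capitals. Pgam2 (chr14:84897855-84897974, minus strand), Mss51 (chr15:3856644-3856763, plus strand), Eno3 (chr10:55869086-55869205, plus strand), Myoz1 (chr15:3693513-3693632, plus strand), Ldha (chr1:106507992-106508111, plus strand), Prkag3 (chr9:83753610-83753729, minus strand) and Gpcpd1 (chr3:140285326-140285445, minus strand) are shown from 100 bases before to 20 after the start, RGD1565323 (chr17:31870352-31870481, plus strand) from 110 before, and Chac1 (chr3:126795941-126796070, plus strand) from 190 to 61 bases before it.
Pgam2: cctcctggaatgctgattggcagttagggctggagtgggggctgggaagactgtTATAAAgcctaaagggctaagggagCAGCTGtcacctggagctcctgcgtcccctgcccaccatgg
Mss51: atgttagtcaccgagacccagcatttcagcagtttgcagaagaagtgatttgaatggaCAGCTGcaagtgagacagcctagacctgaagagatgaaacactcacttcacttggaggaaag
Eno3: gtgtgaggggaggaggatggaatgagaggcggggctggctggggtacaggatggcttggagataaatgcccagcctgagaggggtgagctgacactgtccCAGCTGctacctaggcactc
Myoz1: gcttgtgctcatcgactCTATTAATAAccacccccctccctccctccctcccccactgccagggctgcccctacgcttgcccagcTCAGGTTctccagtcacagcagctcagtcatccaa
Ldha: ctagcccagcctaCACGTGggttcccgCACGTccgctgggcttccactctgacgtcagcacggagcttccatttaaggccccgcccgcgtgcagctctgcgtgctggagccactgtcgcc
Prkag3: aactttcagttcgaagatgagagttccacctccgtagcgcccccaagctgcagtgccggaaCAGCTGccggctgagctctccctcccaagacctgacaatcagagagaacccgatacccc
RGD1565323: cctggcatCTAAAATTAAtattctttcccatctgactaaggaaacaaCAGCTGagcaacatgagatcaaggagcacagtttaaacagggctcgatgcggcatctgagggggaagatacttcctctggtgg
Gpcpd1: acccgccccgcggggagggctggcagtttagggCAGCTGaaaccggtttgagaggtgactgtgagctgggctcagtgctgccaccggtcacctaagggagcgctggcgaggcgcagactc
Chac1: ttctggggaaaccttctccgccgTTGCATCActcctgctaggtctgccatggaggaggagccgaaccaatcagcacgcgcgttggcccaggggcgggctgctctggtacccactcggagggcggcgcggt
The capitals are CAGCTG in Pgam2, Mss51, Eno3, Prkag3, RGD1565323 and Gpcpd1, TATAAA in Pgam2, the MEF2 motif in Myoz1 and RGD1565323, TCAGGTT in Myoz1, ACGTG on either strand in Ldha, and TGATGNAA on the reverse strand in Chac1.

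The second question was how the same genes changed in soleus. Their mean CTRL levels there ran from 0.0476 to 6300 CPM with a median of 12 CPM (on library totals, as in the rule). In LRT soleus 16 members rose and 2 fell, beside 7.36% and 6.58% of all tested genes, and the median log2 fold change was 0.01. In HRT soleus 15 members rose and 1 fell, beside 7.95% and 8.23% at a median of 0.31, with 20 of 89 members below 0. HI libraries lay above all CTRL libraries for 4 members in LRT and 5 in HRT (1.79% and 2.25% of all tested genes), and below them for 2 and 1 (2.09% and 2.31%). With members chosen in the CTRL libraries of the other line, 14 of 96 rose in LRT (6 without HI replicates 1 and 3) and 13 of 85 in HRT. Without LRT HI replicates 1 and 3, 7 members rose in LRT (2.14% of all tested genes).

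Both lines shared 11 of the 16 and 15 that rose, among them Cd24, Chac1, Arrdc2, Gpcpd1, Kcnc4, Mpp3, Prkag3, RGD1565323 and Gabrr1. In LRT plantaris, 1 of the 16 also rose and 2 fell. Of the 12 glycolysis and glycogen members 1 rose in LRT soleus (Prkag3) and 2 in HRT soleus (Prkag3 and Pfkfb3), and none fell, beside 16 and 15 of all 89 members that rose.

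Cd24, a small anchored glycoprotein of the cell surface, was at 1.79, 4.66 and 5.69 CPM in LRT CTRL soleus and 7.73, 19.5 and 70.8 CPM in HI, with no overlap, a 6.73-fold rise (adjusted p = 0.00014). Without LRT HI replicates 1 and 3 the rise was smaller, at a log2 fold change of 1.81, and the call held. In HRT it was at 0.53, 0.888 and 4.41 CPM in CTRL and 3.55, 6.84 and 19.9 CPM in HI, a 6.35-fold rise (adjusted p = 0.00022) with 1 high CTRL library, replicate 6, in the HI range. In plantaris Cd24 was at medians of 246 and 410 CPM in LRT and 209 and 287 CPM in HRT, and did not pass.

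Chac1 rose from 0.941, 1.55 and 2.62 CPM to 4.47, 6.45 and 13.5 CPM in LRT soleus (5.1-fold, adjusted p = 0.00017) and from 0.632, 1.2 and 2.98 CPM to 4.33, 8.54 and 11.3 CPM in HRT soleus (5.7-fold, adjusted p = 5.3e-05). All HI libraries lay above all CTRL libraries in both lines. Arrdc2 was at 2.32 to 6.36 CPM in LRT CTRL and 5.97 to 14.3 CPM in HI, and at 1.21 to 2.96 CPM and 6.75 to 27.3 CPM in HRT, where the groups did not overlap. Its rises were 2.63-fold (adjusted p = 0.0047) and 8.34-fold (adjusted p = 2.4e-07, edgeR).

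Kcnc4, Prkag3, Mpp3, a membrane scaffold protein, and Gpcpd1, which cleaves glycerophosphocholine, rose in both lines with wider spread. Prkag3 was at 6.39, 10.8 and 12.6 CPM in LRT CTRL soleus and 10.7, 24.1 and 58.9 CPM in HI, with HI replicates 5 and 6 inside the CTRL range. Its log2 fold changes were 1.53 ± 0.42 in LRT and 1.61 ± 0.43 in HRT, those of Kcnc4 1.79 ± 0.46 and 1.78 ± 0.47, those of Mpp3 1.68 ± 0.39 and 2.21 ± 0.41, and those of Gpcpd1 1.1 ± 0.24 and 1.46 ± 0.24. Without LRT HI replicates 1 and 3 the LRT values of Kcnc4 and Prkag3 were 0.99 and 0.76 and did not pass, and Mpp3, Gpcpd1 and RGD1565323 did not pass either. Pfkfb3 rose in HRT (1.25 ± 0.31, adjusted p = 0.0047) and was at 0.82 ± 0.3 in LRT (adjusted p = 0.058).

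Pvalb rose in LRT soleus from a very low base. It was at 0.373, 1.13 and 3.83 CPM in CTRL and 2.68, 7.2 and 43.1 CPM in HI, a 9.41-fold rise with overlapping ranges (log2 fold change 3.23 ± 0.56, adjusted p = 0.0002), and its highest HI library was replicate 5. In HRT soleus it was at 0.125, 0.794 and 2.64 CPM and 0.684, 1.53 and 7.77 CPM (1.47 ± 0.59, adjusted p = 0.079). Even the highest soleus library, at 43.1 CPM, held far less than the lowest plantaris library, at 530 CPM. Sfxn5, a mitochondrial carrier that like Mpp3, Gpcpd1, RGD1565323, Mss51 and the pyruvate kinase-like locus was singled out after its values were seen, rose in LRT soleus from 0.909 to 2.09 CPM up to 2.46 to 4.52 CPM (adjusted p = 0.00069) and fell in LRT plantaris from 12.9 to 23.7 CPM down to 6.55 to 12.9 CPM (adjusted p = 0.00015).

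Lrrc30, a leucine-rich repeat protein, was the member that fell in soleus of both lines. It was at 4.24, 7.76 and 18.1 CPM in LRT CTRL and 0.476, 1.57 and 3.44 CPM in HI, and at 4.29, 5.74 and 7.01 CPM and 0.299, 1.15 and 3.55 CPM in HRT, with no overlap. The falls were 4.48-fold (adjusted p = 0.0038) and 3.84-fold (adjusted p = 0.011). In plantaris it fell in LRT by 1.35 on the log2 scale (adjusted p = 0.027, lost without replicates 1 and 3) and was at -1.36 in HRT (adjusted p = 0.053). ENSRNOG00000019627 fell in LRT soleus by 2.06 on the log2 scale (adjusted p = 0.032), with overlapping ranges of 1.38 to 131 CPM in CTRL and 1.34 to 39.9 CPM in HI. In LRT plantaris it did not pass (-0.83, adjusted p = 0.36), although its HI libraries, at 1660 to 4090 CPM, lay below its CTRL libraries, at 4420 to 6530 CPM.

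**Figure D4:**
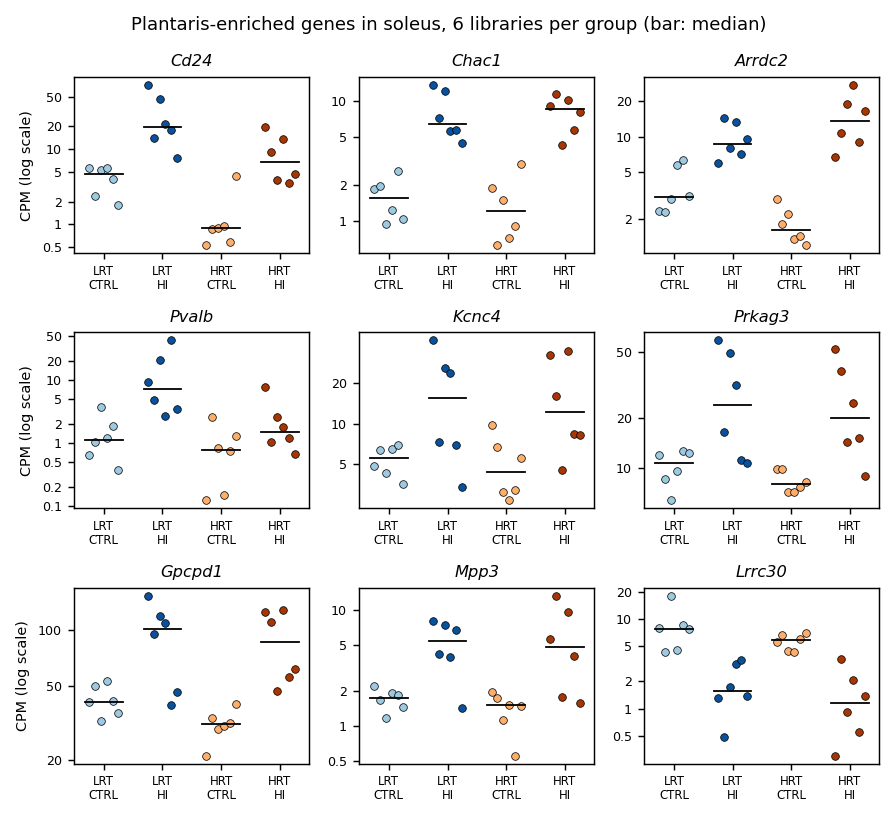
Levels in soleus of 8 members that rose in at least 1 line and of Lrrc30, which fell, in CPM on a logarithmic axis whose range differs between panels. Points are the 6 libraries of a group in replicate order and the bar is the median. Chac1 HI libraries lie above all CTRL libraries in both lines, while Kcnc4, Prkag3 and Mpp3 have HI libraries inside the CTRL range.

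The third question was whether the members changed differently in the lines. DELTA, the LRT change minus the HRT change, was below 0 for 80 of 89 members in plantaris and 67 of 89 in soleus, at medians of -0.48 and -0.25, beside 49.1% and 47.4% of all tested genes below 0. Part of this lean came with LRT HI replicates 1 and 3. Without them the LRT plantaris median was -0.51 in place of -0.76, against -0.33 in HRT. The LRT soleus median was then 0.09 in place of 0.01, against 0.31 in HRT. No member passed the test in either muscle (edgeR; 0.0% of all tested genes passed in plantaris, and 0.0236% lower and 0.0059% higher in soleus). At an unadjusted p under 0.05 there were 11 members (12.4%) in plantaris and 8 (8.99%) in soleus, beside 6.25% and 9.67% of all tested genes. limma-voom and the DESeq2 Wald test called none either. The smallest p in plantaris belonged to Arrdc2 (-1.15 ± 0.43) and Sema7a, an anchored semaphorin (-1.21 ± 0.47), both at an adjusted p of 0.76, and in soleus to Arrdc2 (-1.66 ± 0.48) and Aqp4, the water channel of fast fibres (-2.45 ± 0.73), both at 0.23. Aqp4 soleus medians were 17.3 and 6.39 CPM in LRT CTRL and HI and 3.74 and 8.88 CPM in HRT. The larger number of members called in LRT plantaris is thus not shown to be a difference between lines.

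The change with HI was also compared between muscles within a line, over members chosen in the CTRL libraries of the other line. In LRT 14 of 96 such members changed less upward or more downward in plantaris than in soleus (edgeR interaction), beside 0.991% of all tested genes, and none the other way, beside 1.19%. With the rat as a block, 42 of the 96 passed, beside 3.89% of all tested genes, and without LRT HI replicates 1 and 3 there were 4, beside 0.0697%. In HRT 1 of 85 passed, beside 0.0531% of all tested genes. The difference was below 0 for 87 of the 96 in LRT and 79 of the 85 in HRT, at medians of -0.91 and -0.73. Hs3st1, the 1 gene that passed in HRT, was at -2.3 ± 0.43 in LRT and -2.44 ± 0.42 in HRT, and Gabrr1 was at -3.57 ± 0.61 in LRT. Hs3st1, Gabrr1, Pvalb and Sfxn5 were the 4 that passed in LRT without replicates 1 and 3. Sfxn5, at -1.92 ± 0.27, had the smallest adjusted p in LRT, 0.00011.

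**Figure D5:**
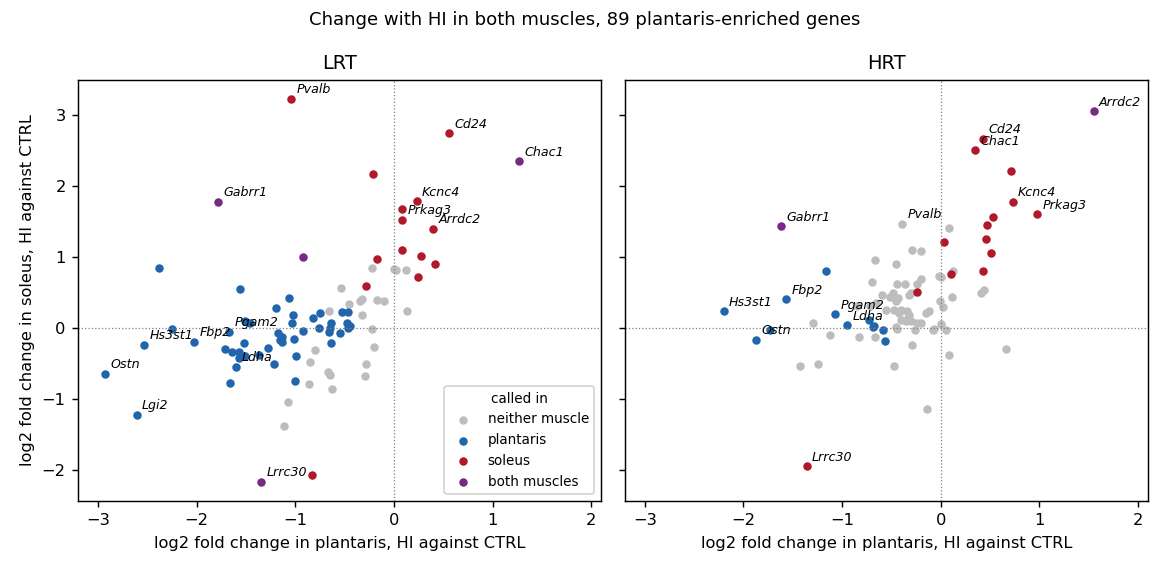
The log2 fold change with HI in plantaris (horizontal axis) against that in soleus (vertical axis) for the 89 members in LRT (left) and HRT (right). Colours mark the muscle in which a member was called (adjusted p under 0.05). Most called members lie either left of 0 near the horizontal line or above 0 near the vertical line, and Gabrr1 lies upper left in both lines.

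The contrast between the muscles remained in HI rats, which took no part in choosing the members. In LRT HI rats 77 of 89 members were higher in plantaris than in soleus and none lower (edgeR, beside 15.8% and 14.1% of all tested genes), and in HRT HI rats 87 and none (17.0% and 17.2%). This fit treats the muscles of a rat as independent. With the rat, taken from the replicate number, as a block, 79 members in LRT and 86 in HRT were higher, given without the share of all tested genes. A difference over 1 on the log2 scale was called by glmTreat for 56 members in LRT and 74 in HRT (1.03% and 1.26% of all tested genes). The median log2 difference was 1.94 in LRT and 2.36 in HRT. Without LRT HI replicates 1 and 3 the LRT count was 82, beside 11.3% of all tested genes, and the median 2.27, and a difference between the lines was not tested. The ratio used by the rule had a median of 2.5 in LRT CTRL and 1.74 in LRT HI rats, and of 2.68 and 2.12 in HRT. A ratio of at least 2 was found for 34 of 89 members in LRT HI rats and 49 in HRT HI rats, and for 79 and 83 in the CTRL rats that chose them (no test). Ky and Gabrr1, both at a ratio of 0.25, were the lowest in LRT HI rats, and Pvalb was still at 6.38 in LRT and 8.23 in HRT. Cib2, a calcium-binding protein, and Myoz1 were among the clearest differences, at log2 fold changes of 5.53 ± 0.35 (adjusted p = 2.1e-16) and 3.84 ± 0.3 (adjusted p = 2.5e-13) in HRT.

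Markers of other tissue moved with some of these groups. Like the lists, these sets hold only genes with a symbol, which the authors had called. A change of their sums with HI was thus partly fixed by that choice. The summed level of 6 fibroblast and matrix genes was 623 to 1350 CPM in LRT CTRL plantaris and 227 to 790 CPM in HI, and 671 to 1310 and 228 to 695 CPM in HRT, none of the genes at 0. The slow muscle markers were at 16700 to 25000 CPM in LRT CTRL soleus and 5130 to 18000 CPM in HI, and at 13500 to 23900 and 4830 to 19700 CPM in HRT. In LRT HI replicates 1 and 3 the same slow markers were lowest of their group in plantaris, at 1650 and 1660 CPM. Immune cell genes summed to 10.3 to 18.8 CPM in HRT CTRL soleus and 23.5 to 50 CPM in HI, with no overlap, and to 8.39 to 17.4 and 11.7 to 21.3 CPM in LRT soleus. Erythroid genes reached 3080 CPM in 1 HRT HI plantaris library and 10600 CPM in the soleus of the same replicate number, replicate 5, against group medians of 400 and 1160 CPM. In HRT soleus they summed to 163 to 611 CPM in CTRL (median 297 CPM) and to 224 to 10600 CPM in HI. The medians in LRT soleus were 677 CPM in CTRL and 949 CPM in HI. Adipocyte genes had medians of 147 and 124 CPM in LRT CTRL and HI plantaris and of 103 and 143 CPM in HRT. In soleus their medians were 114 and 95.6 CPM in LRT and 80.7 and 118 CPM in HRT. The part of these markers in the changes of the members was not tested. Of the 18 ubiquitin ligase and autophagy genes, none a member, 10 rose and 5 fell in LRT plantaris and 9 rose and 3 fell in HRT plantaris. Of the 8 slow and cardiac genes with a symbol, none a member, 3 fell in LRT plantaris and 1 rose in HRT plantaris, and 4 fell in LRT soleus and 2 fell and 1 rose in HRT soleus. Of the 23 other identifiers of the fast-fibre signalling list, with Dusp13 under 2 of them, 9 fell and 6 rose in LRT plantaris, 5 fell and 4 rose in HRT plantaris, 8 fell and 4 rose in LRT soleus, and 8 fell and 6 rose in HRT soleus. Of the 4 other purine nucleotide genes 3 fell and 1 rose in LRT plantaris, 2 fell and 1 rose in HRT plantaris, and 1 fell in LRT soleus. Median RIN was 8.25 in LRT CTRL and 8.3 in LRT HI plantaris, 8.25 and 8.5 in HRT plantaris, 8.05 and 8 in LRT soleus and 8.15 and 8.1 in HRT soleus, and RIN was a term of the main test.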

How the data were processed

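Total RNA from pieces of plantaris and soleus was sequenced in 48 libraries. Per the labels and the study's methods, the authors estimated transcript counts with Salmon 0.9.1 against Rnor_6.0 cDNA and ncRNA (Ensembl) and deposited gene-level estimated counts made with tximport, which were rounded to whole numbers here. The labels and methods name different library kits, so the use of strand is unsure and overlapping genes cannot be told apart. Totals were 26.8 M to 36.4 M counts. The labels do not say more of the replicates than their number. The p-values rest on an estimate of spread per gene that both muscles and all 8 groups share. For a gene with wider spread in soleus, a missed call in plantaris is thus not a measure of spread in plantaris alone.

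Genes passing filterByExpr (16960, all 89 members among them) were fitted with edgeR 4.0.16 (R 4.3.3) by the quasi-likelihood test, with TMM scaling, 8 groups and RIN over all 48 libraries and Benjamini-Hochberg adjustment. limma-voom 3.58.1 (the study's tool) and DESeq2 1.42.0 were alternatives, as were other scalings, filters, rules, blocks and left-out libraries. The fit was tested on simulated data, where 76.5% of 2-fold and 91% of 4-fold changes were recovered for LRT plantaris (16788 genes). For HRT soleus 78.8% and 96% were recovered, and for DELTA in plantaris 68% and 88.9%. In that DELTA run 97 genes had a 2-fold and 99 a 4-fold change, and 16567 had none. Recovery for the members, at their own levels and spread between libraries, was not tested. False calls were 3.49%, 5.95% and 4.94% of the calls in LRT plantaris, HRT soleus and DELTA in plantaris. Replicate numbers were checked as a pairing. Plantaris and soleus of the same number deviated together in LRT (mean r of 0.21 in CTRL and 0.323 in HI, over genes), every pair above 0.1, and HI and CTRL rats of the same number did not (0.00269 in LRT plantaris). Members and lists (fast sarcomere, calcium and excitation, glycolysis and glycogen, purine nucleotide, fast-fibre signalling, ubiquitin ligases, slow muscle) were chosen with earlier results of these data known. Genes are named by abundance (10), the 3 largest called rises and falls per comparison, the smallest p per contrast, the rule's threshold and the lists, and other names are said to be chosen later. Symbols were read from identifier columns only, and the authors' own fold changes and p-values were not used.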

Additional observations from a re-analysis of the deposited data

Results flagged for a closer look

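Of 256 groups of 6 libraries tested for a single library far from the others (Dixon's test at 95%), 21 held one, and chance gives about 1 in 20 groups. In HRT HI plantaris, replicate 4 was lowest for the members' summed share (11.9%), Pfkm (1450 CPM) and Pvalb (530 CPM). In HRT CTRL soleus, replicate 6 was highest for Eno3 (1340 CPM), Ldha (381 CPM), Ostn (1.43 CPM) and Cd24 (4.41 CPM), and replicate 1 for Sema7a (12 CPM). In LRT CTRL plantaris, replicate 3 was highest for Cd24 (635 CPM) and Lrrc30 (66.2 CPM), replicate 2 for Aqp4 (288 CPM) and replicate 1 for Pfkfb3 (317 CPM). In LRT CTRL soleus, replicate 3 was highest for Lrrc30 (18.1 CPM) and replicate 6 lowest for Mylpf (207 CPM). In LRT HI soleus, replicate 2 was highest for Aqp4 (24.7 CPM) and Gpd1 (81.1 CPM). Single high libraries were also seen for Ostn in LRT HI plantaris (41.6 CPM), Kcnc4 (124 CPM) and Slc16a3 (260 CPM) in HRT HI plantaris, and Pkm (436 CPM) and Pvalb (7.77 CPM) in HRT HI soleus.

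The change with HI differed between muscles for 14 of 96 members chosen in the other line in LRT and for 1 of 85 in HRT (edgeR interaction, adjusted p under 0.05), beside 0.991% and 0.0531% of all tested genes. With the rat as a block these counts were 42 and 4, beside 3.89% and 0.407%, and without LRT HI replicates 1 and 3 the LRT count was 4, beside 0.0697%.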

How the results depend on the processing

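The check of direction covered 124 results of members named by abundance, called change, smallest p, threshold or list. None of these changed direction while called under any alternative run. Members said to be chosen later were not part of this check. The number of members was 327 with a log2 ratio of at least 1 and 33 with at least 3. With those rules 157 and 12 members fell in LRT plantaris and 45 and 5 in HRT plantaris, 47 and 5 rose in LRT soleus and 56 and 5 in HRT soleus, while at least 1 gave 15 and 16 rises in LRT and HRT plantaris and 6 and 9 falls in LRT and HRT soleus, and at least 3 gave 1 and 0 falls in soleus. At an adjusted p under 0.001 the falls were 22 in LRT and 1 in HRT plantaris, the rises 4 and 5 in soleus, and the rises in plantaris and falls in soleus 0. These counts are given without the share of all tested genes at that threshold. Counts of this section that have no such share in the text are not compared with all genes. With an absolute log2 fold change over 1, 32 and 7 members fell in LRT and HRT plantaris. With library totals 2 and 3 members rose in plantaris, and the share of falls among all called genes went from 47.3% to 15.3% in LRT and from 53.4% to 16.6% in HRT plantaris and from 47.2% to 17.0% and from 50.9% to 35.9% in soleus, against 98.0% to 95.3% and 92.9% to 80.0% of the called members in plantaris. limma-voom gave 2 rises in LRT plantaris, 20 falls in HRT plantaris and 10 rises in LRT soleus, beside 2383, 1051 and 1099 of all 16960 tested genes. Genes with any count gave 8 falls in HRT plantaris. Each muscle fitted alone, with its own estimate of spread, gave 54 falls in LRT plantaris, 8 in HRT plantaris and 1 in LRT soleus. TMM sizes in the rule gave 2 rises in HRT plantaris and 2 falls in HRT soleus, and members chosen in the other line gave 3 and 0. Without LRT HI replicates 1 and 3, chosen after seeing the data, 27 members fell in LRT plantaris and 7 rose and 1 fell in LRT soleus. The difference between muscles in LRT gave 7 with any count, 25 with DESeq2 and 4 without replicates 1 and 3, and in HRT 2 without RIN and 2 with DESeq2.

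With the replicate block, 51 and 18 members fell in LRT and HRT plantaris, 4 fell in LRT soleus, and 16 and 17 rose in soleus. These counts are given without the share of all tested genes under the same fit. HI and CTRL rats share only a number, so this pairing is not part of the design. With the rat as block the muscles differed for 42 members in LRT and 4 in HRT, where not every HRT CTRL pair deviated together (lowest r -0.0503).

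Leaving out 1 library at a time gave 42 to 51 falls and 1 to 2 rises in LRT plantaris, 5 to 17 falls and 1 to 1 rises in HRT plantaris, 10 to 18 rises and 1 to 3 falls in LRT soleus, and 10 to 18 rises and 1 to 2 falls in HRT soleus. The lowest count in HRT plantaris was without HI replicate 4. The causes of these shifts were not tested. At 26.8 M counts, members under 1 CPM in soleus rest on few counts.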
